A study of Mus musculus with 8 samples.

Results

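Tumours of the radiation-resistant line TC-1/IR were set against tumours of its parental line TC-1 after the same drug, rhIL-7-hyFc, on 1 antibody-array membrane each. The comparison took 2 of the 8 membranes of the series and all 111 analytes printed on them. Both lines are mouse tumour cells that express HPV16 E6 and E7. The hosts were female C57BL mice aged 10 weeks, inoculated in the thigh with 300000 TC-1/IR cells or 100000 TC-1 cells. Drug treatment was 50 µg of rhIL-7-hyFc per mouse under the skin on days 0 and 7, with no irradiation, in both IL-7 groups. The other 6 membranes held tumours of both lines given buffer, radiotherapy (RT, whole-body gamma irradiation of 2 Gy daily for 4 days), or RT with rhIL-7-hyFc.

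The sample titles call each lysate pooled, while the design text speaks of individual mice, and how many animals each lysate holds is unknown. Whether TC-1/IR is 1 clone was not given in the sources used here. The lines also differed in the number of cells inoculated, and that difference cannot be told apart from the difference in line. With 1 membrane in each group there is no replicate and no p-value for the comparison of the IL-7 membranes. Every ± below is the SD of the 2 duplicate spots of a membrane and holds technical error only.

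Interleukin-7 is a cytokine that T cells need to survive and divide, and it signals through a receptor built from the IL-7 receptor alpha chain and the common gamma chain. Chemokines such as CXCL9, CXCL10, CCL19 and CCL21 draw T cells and dendritic cells, whereas CXCL2, LIX and G-CSF recruit or mobilise neutrophils. Neutrophils carry myeloperoxidase and lipocalin-2 in their granules, and monocytes and macrophages display CD14. A lysate of whole tumour mixes tumour cells, stroma, immune cells and blood, so more cells of a type and more protein per cell cannot be told apart. The array holds no HPV16 antigen and no marker that would tell TC-1 from TC-1/IR cells, so the tumour identity could not be checked.

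The comparison had been framed as a lymphoid-type against a myeloid-type milieu, and the analytes did not divide cleanly in that way. Among myeloid proteins, myeloperoxidase, lipocalin-2 and CD14 were higher in TC-1/IR, while pentraxin 3, CXCL2, LIX, G-CSF, M-CSF and CCL12 were lower. Among lymphoid ones, CCL19, CXCL9, CX3CL1, IL-4 and IL-15 were lower in TC-1/IR, CXCL10 was neither, and IL-10 had the higher mean in TC-1/IR. As deposited, the share of lower calls in the lymphoid lists was close to that of all measured analytes, as given below. After the median centring described below, the lists had 3 of 6, 1 of 1 and 3 of 5 lower, against 36.9% of all measured analytes.

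An analyte was called higher or lower in TC-1/IR by a rule of size. It needed a change of at least 1.5-fold, a mean above the floor of 2.49 intensity units on at least 1 of the 2 membranes, and duplicate spots that did not overlap. The floor is 1% of the highest analyte mean of the series, and lower means were set to it before taking log2. A fold change against a membrane below the floor is therefore given as "at least".

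Of the 111 analytes, 93 were above the floor on at least 1 IL-7 membrane. In TC-1/IR 6 of the 93 were higher (6.45%) and 53 were lower (57.0%), while 34 were neither and the other 18 were below the floor on both. The TC-1/IR membrane had 48 analytes above the floor and the TC-1 membrane 91, with 46 above it on both. All analytes summed to 1495 units on the TC-1/IR membrane and 1449 units on the TC-1 membrane. Similar totals thus went with far fewer analytes above the floor in TC-1/IR. Of the 53 lower analytes 33 have bounds only, and the 20 above the floor on both were 1.51- to 4.43-fold lower. The largest fold not called was 1.44, of CXCL11.

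The ratios lay below 0 over the membranes as a whole. The median log2 ratio, TC-1/IR over TC-1, was -0.69 over the 93 analytes and -0.42 over the 46 above the floor on both. Spots without signal, deposited as 0.001 or 0.0011, numbered 47 of 222 on the IL-7 membrane of TC-1/IR and 0 on the IL-7 membrane of TC-1. The 15 analytes that were above the floor on no membrane of the series had a median of 0.00105 units on TC-1/IR IL-7 and 1.325 units on TC-1 IL-7. After median centring on the 28 analytes that exceeded the floor everywhere, which removed a shift of -0.41, 12 of 84 were higher (14.3%) and 31 lower (36.9%). All 6 higher calls and 31 of the 53 lower calls were kept. The 6 analytes higher only after centring were chitinase 3-like 1, fetuin A, FGF acidic, IL-10, osteopontin and PDGF-BB. Subtracting the low-signal level of each membrane instead left 12 of 80 higher (15.0%) and 34 lower (42.5%), the same 6 higher and 34 of the 53 lower among them. A count of lower analytes in a list is read below against these backgrounds.

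**Figure D1:**
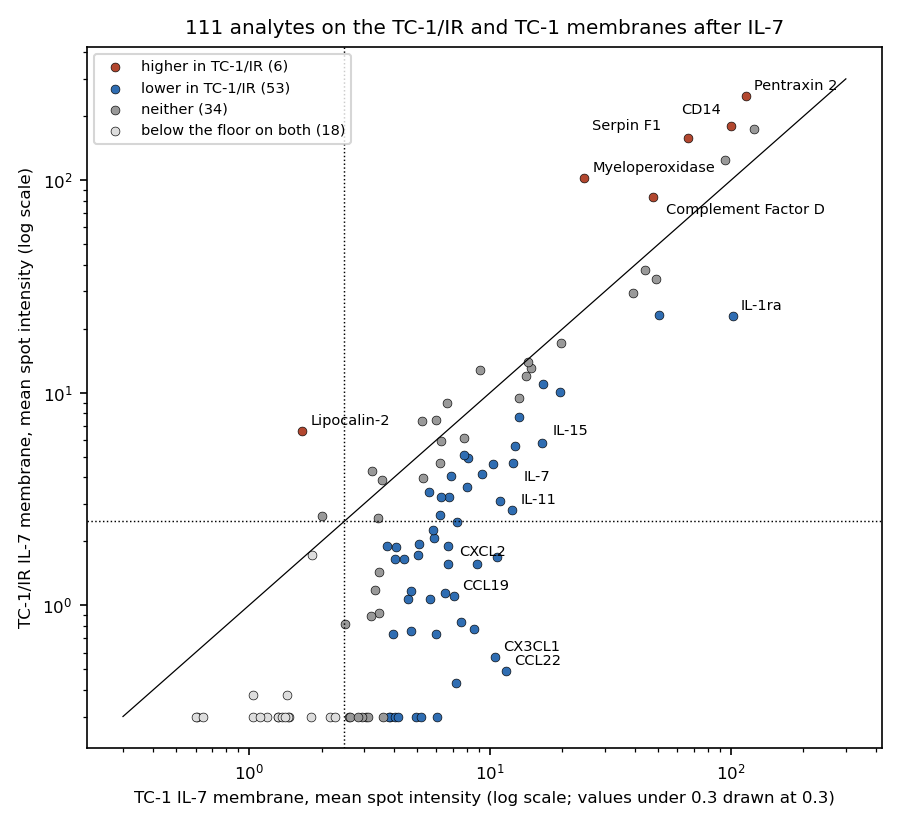
Mean spot intensity of 111 analytes on the IL-7 membrane of TC-1/IR (vertical, log scale) against the IL-7 membrane of TC-1 (horizontal, log scale), with means under 0.3 drawn at 0.3, dotted lines at the floor of 2.49 and the diagonal marking equal values. The 6 analytes called higher in TC-1/IR stand above the diagonal, 5 of them at strong signal, and the 53 called lower lie below it, many of them under the floor on the TC-1/IR membrane.

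The neutrophil granule enzyme myeloperoxidase (Mpo, Entrez 17523) gave the largest rise. Its 2 spots read 100.88 and 103.35 units on the IL-7 membrane of TC-1/IR, against 23.28 and 25.98 units on the IL-7 membrane of TC-1. The ratio was 4.15-fold (log2 2.05, SE 0.08 from duplicate spots), or log2 2.46 after centring. The other TC-1/IR membranes read 10.2 units with buffer, 7.96 after RT and 4.08 after RT with IL-7. The other TC-1 membranes read 25.3, 9.11 and 8.88 units in the same order. All 7 other membranes lay far below the IL-7 membrane of TC-1/IR, and the next highest was the buffer membrane of TC-1.

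Lipocalin-2 (Lcn2), an iron-binding protein of neutrophil granules and of stressed epithelium, was above the floor on the IL-7 membrane of TC-1/IR only. It read 6.59 ± 0.27 units there and 1.67 ± 0.36 units on the IL-7 membrane of TC-1, at least 2.65-fold higher. The other TC-1/IR membranes lay between 0.0455 and 0.21 units and the other TC-1 membranes between 0.89 and 1.80 units.

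Chitinase 3-like 1 (Chil1), a glycoprotein made by macrophages and neutrophils, read 7.35 ± 0.57 units in TC-1/IR and 5.24 ± 0.52 units in TC-1. At 1.40-fold it missed the rule as deposited and met it after centring (log2 0.90). Among the TC-1/IR membranes the other values were 0.67, 1.76 and 1.5 units, so this protein too was highest after IL-7 alone.

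The remaining members of the same list did not share this rise. Pentraxin 3 (Ptx3), a pattern-recognition protein of neutrophils, macrophages and endothelium, was 3.55-fold lower, with spots of 3.38 and 2.84 units in TC-1/IR and 9.47 and 12.61 units in TC-1. The gelatinase MMP-9, stored in neutrophil granules, had no signal on the IL-7 membrane of TC-1/IR and 0.645 units on the IL-7 membrane of TC-1. Resistin, a myeloid product in humans and an adipokine in mice, likewise had no signal in TC-1/IR and 1.12 units in TC-1. The list of 6 thus had 2 higher, 1 lower and 1 neither, with MMP-9 and resistin below the floor on both. Its summed level was 119 units in TC-1/IR and 44.3 units in TC-1 after IL-7, against ranges over the other treatments of 7.98 to 18.1 in TC-1/IR and 21.9 to 37.0 in TC-1. Myeloperoxidase carried this sum: without it the list came to 17.1 units in TC-1/IR and 19.7 units in TC-1 after IL-7.

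Factors that recruit neutrophils were measured by 3 analytes. CXCL2, a ligand of CXCR2, had 1.56 ± 0.01 units in TC-1/IR and 6.72 ± 0.30 units in TC-1 and was at least 2.70-fold lower. LIX (Cxcl5), of the same receptor family, had 1.15 ± 0.08 and 6.53 ± 0.08 units in TC-1/IR and TC-1 and was at least 2.62-fold lower. G-CSF (Csf3), the growth factor of the neutrophil lineage, had 1.17 ± 0.18 units in TC-1/IR and 4.70 ± 0.08 units in TC-1 and was at least 1.89-fold lower. CXCL1 was below the floor on both membranes. After RT, CXCL2 had the other order, with 7.91 units in TC-1/IR and 4.3 units in TC-1. All 3 measured members of this list were lower, or 2 of 3 after centring, when G-CSF fell short of the rule, beside 57.0% of all measured analytes as deposited and 36.9% after centring.

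CD14 (Cd14), the endotoxin coreceptor of monocytes and macrophages, was 1.78-fold higher at 179 ± 1.77 units in TC-1/IR and 101 ± 0.71 units in TC-1 (log2 0.83, SE 0.01). On the other TC-1/IR membranes it read 51.8 units with buffer, 166 after RT and 38.7 after RT with IL-7. The TC-1 values in that order were 132, 94.9 and 94.7 units. TC-1/IR was thus above TC-1 after IL-7 alone and after RT alone, and below it with buffer and with the combination.

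The other measured members of the monocyte list were M-CSF, CCL12 and CCL6. M-CSF (Csf1), which sustains macrophages, was 2.27-fold lower at 5.60 ± 2.36 units in TC-1/IR and 12.7 ± 0.40 units in TC-1, with widely spaced TC-1/IR spots. CCL12, a ligand of CCR2, was at least 2.36-fold lower (2.07 ± 0.30 units in TC-1/IR, 5.88 ± 0.25 in TC-1). CCL6 was at least 1.62-fold lower (1.66 ± 1.09 units in TC-1/IR, 4.05 ± 0.98 in TC-1), a call lost after centring. CCL2, GM-CSF and CD93 were below the floor on both. Of 7 members, 1 was higher and 3 were lower among 4 measured, or 1 and 2 after centring, beside lower shares of 57.0% and 36.9% over all measured analytes.

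Lymphoid homing was represented mainly by CCL19 (Ccl19), which brings CCR7-bearing lymphocytes and dendritic cells together. Its spots read 1.19 and 1.02 units on the IL-7 membrane of TC-1/IR and 6.75 and 7.39 units on the IL-7 membrane of TC-1, at least 2.84-fold lower. With buffer, RT and the combination TC-1/IR had 3.27, 3.53 and 6.60 units, against 1.44, 3.14 and 4.95 units in TC-1. For CCL19, TC-1/IR after IL-7 was the lowest of the 8 and the IL-7 membrane of TC-1 the highest. The CCR7 ligand CCL21 (0.82 units in TC-1/IR, 2.50 in TC-1) and the B cell chemokine CXCL13 (no signal in TC-1/IR, 3.05 units in TC-1) were at or barely above the floor in TC-1. BAFF, a survival factor of B cells, was below it on both. This list of 4 had 1 lower of 3 measured.

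Chemokines of T and NK cells had 3 lower and 0 higher of 6 measured, both as deposited and after centring. CX3CL1 (fractalkine), which binds CX3CR1 on cytotoxic lymphocytes and monocytes, was at least 4.21-fold lower, at 0.57 ± 0.21 units in TC-1/IR and 10.5 ± 0.04 units in TC-1. The gap was absent after RT, when CX3CL1 read 8.59 units in TC-1/IR and 7.60 units in TC-1. CXCL9, induced by interferon-γ and read by CXCR3, was at least 2.94-fold lower (2.46 ± 0.69 units in TC-1/IR, 7.33 ± 0.48 in TC-1). Its TC-1/IR mean lay just under the floor. CXCL16, the ligand of CXCR6, was at least 2.68-fold lower (1.91 units in both TC-1/IR spots, 6.68 ± 0.21 in TC-1).

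CXCL10, which shares the receptor CXCR3 with CXCL9, did not follow it. It read 13.1 ± 0.76 units in TC-1/IR and 14.7 ± 0.52 units in TC-1, a log2 ratio of -0.17, or 0.24 after centring. Its highest values in both lines came with the combination, 34.0 units in TC-1/IR and 40.5 units in TC-1. CXCL11, the third ligand, had 0.0755 units in TC-1/IR and 3.59 units in TC-1, and CCL3/CCL4, read as 1 analyte, had 0.92 and 3.46 units in TC-1/IR and TC-1. Both were below the floor in TC-1/IR and under 1.5-fold when set to it. CCL5 was below the floor on both membranes.

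Among T cell cytokines 4 of 6 measured were lower. IL-4, the signature type 2 cytokine, was at least 2.90-fold lower (0.43 ± 0.28 units in TC-1/IR, 7.21 ± 0.75 in TC-1), and IL-13 was 2.34-fold lower (2.66 ± 0.11 units in TC-1/IR, 6.23 ± 0.21 in TC-1). Interferon-γ (Ifng) had no signal in either TC-1/IR spot and 5.19 ± 0.30 units in TC-1, at least 2.08-fold lower. IL-5 had no signal in TC-1/IR and 4.14 ± 0.40 units in TC-1, at least 1.66-fold lower, a call lost after centring. IL-22 was neither. IL-2, IL-3 and IL-17A were below the floor on both.

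IL-10 (Il10), which restrains inflammation and is made by T cells and macrophages, was the T cell cytokine that pointed the other way. Its spots read 12.57 and 13.04 units in TC-1/IR and 8.74 and 9.37 units in TC-1, a 1.41-fold difference that missed the rule as deposited. It met the rule after centring (log2 0.91). TC-1/IR also had the higher IL-10 mean in each of the other treatments, by log2 0.85 with buffer, 0.70 after RT and 0.61 after both.

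The shares of lower calls in these 3 lymphoid lists, 3 of 6, 1 of 3 and 4 of 6, lay around the 57.0% of all measured analytes. After centring they were 3 of 6, 1 of 1 and 3 of 5, against 36.9%. The 2 higher calls among 4 neutrophil granule and myeloid products stood against a background of 6.45%, or 3 of 4 against 14.3% after centring. Lipocalin-2 entered these 4 only through the TC-1/IR membrane where it was high. MMP-9 and resistin, with no signal in TC-1/IR, were left out as below the floor on both. This contrast is thus partly set by the floor and is no separate result.

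**Figure D2:**
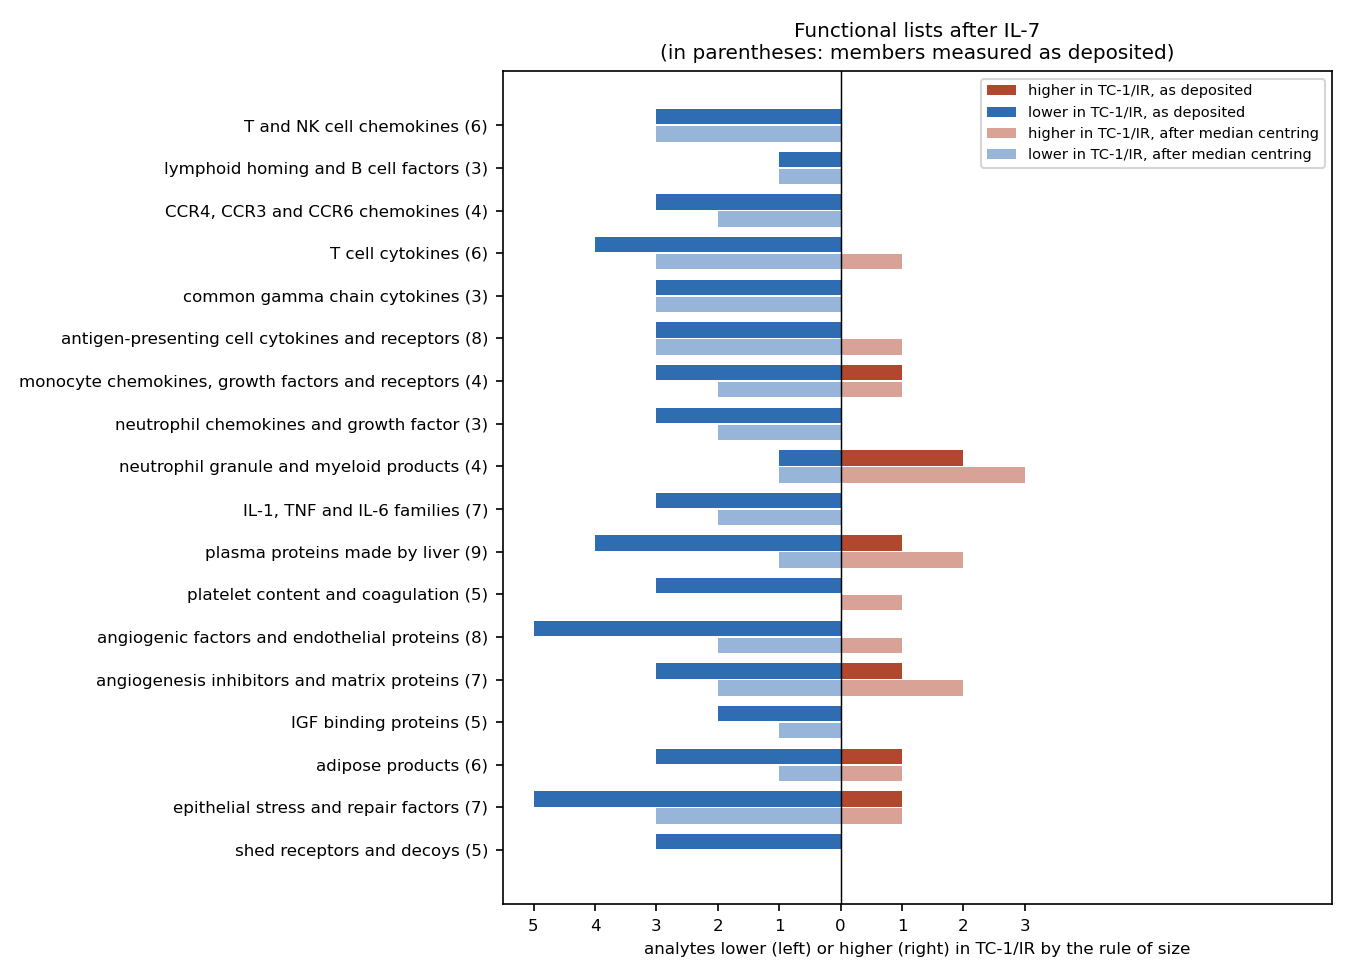
Number of analytes per functional list that were lower (left, blue) or higher (right, red) in TC-1/IR, relative to TC-1, after IL-7 by the rule of size, as deposited (dark) and after median centring (light). Neutrophil granule and myeloid products are the 1 list with more higher than lower calls as deposited, 2 against 1, and no lymphoid list holds a higher call before centring.

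The IL-7 reading itself (Il7, Entrez 16196) was 2.66-fold lower in TC-1/IR, at 4.69 ± 0.52 units against 12.5 ± 0.35 units in TC-1. Both groups had received the human drug, and whether the antibody of this mouse array binds it was not given in the sources used here. Without the drug TC-1/IR read 0.595 units with buffer and 3.80 after RT, and TC-1 read 13.2 and 13.9. With RT and the drug, TC-1/IR read 1.905 units and TC-1 8.53 units. Among the cytokines that share the common gamma chain, IL-4, IL-7 and IL-15 were lower and IL-2 was below the floor on both. IL-15 (Il15), which supports memory T cells and NK cells, was 2.85-fold lower at 5.80 ± 1.43 units in TC-1/IR and 16.5 ± 0.68 units in TC-1. These were the lowest and the highest IL-15 value of the 8 membranes.

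The largest falls joined regulators of several kinds. CCL22 (Ccl22), which attracts regulatory T cells through CCR4, was at least 4.67-fold lower, at 0.49 ± 0.04 units in TC-1/IR and 11.6 ± 1.70 units in TC-1. Under the other treatments CCL22 read 0.775 to 6.12 units in TC-1/IR and 10.99 to 13.6 units in TC-1, with no overlap of the lines. CCL17, its partner ligand of CCR4, was at least 3.44-fold lower at 0.775 ± 0.01 and 8.58 ± 0.11 units in TC-1/IR and TC-1. The IL-1 receptor antagonist IL-1ra (Il1rn, Entrez 16181) was 4.43-fold lower at 22.9 ± 1.63 units in TC-1/IR and 102 ± 0.01 units in TC-1 (log2 -2.15, SE 0.07). With buffer, RT and the combination IL-1ra read 4.14, 19.7 and 10.8 units in TC-1/IR, against 47.7, 53.4 and 71.0 units in TC-1. Both lines had their highest IL-1ra value after IL-7 alone, and every TC-1/IR value lay below every TC-1 value.

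IL-11 (Il11), of the IL-6 family, was 4.40-fold lower at 2.82 ± 0.45 units in TC-1/IR and 12.4 ± 0.12 units in TC-1. The lambda interferons read as IL-28A/B were at least 4.29-fold lower (1.69 ± 0.46 units in TC-1/IR, 10.7 ± 0.32 in TC-1). CD40, the costimulatory receptor of B cells and dendritic cells, was at least 3.56-fold lower at 1.56 ± 0.21 and 8.88 ± 0.45 units in TC-1/IR and TC-1. After RT it read 9.61 units in TC-1/IR and 6.84 units in TC-1, the other order. Angiopoietin-like 3, a liver protein that inhibits lipoprotein lipase, was at least 3.03-fold lower at 0.835 ± 0.19 units in TC-1/IR and 7.55 ± 0.54 units in TC-1. Among these 7, 2 were above the floor in TC-1/IR, IL-1ra and IL-11, so only their folds are measured on both sides.

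On the higher side, 3 further strong analytes joined myeloperoxidase, lipocalin-2 and CD14. Serpin F1 (PEDF, Serpinf1), an inhibitor of vessel growth, was 2.38-fold higher at 158 ± 3.08 units in TC-1/IR and 66.4 ± 0.88 units in TC-1. Its other TC-1/IR membranes read 78.4 units with buffer, 157.54 after RT and 54.7 with the combination, and the other TC-1 membranes 53.1, 49.1 and 48.3. The TC-1/IR values after IL-7 and after RT thus differed by less than the spot SD. The plasma protein pentraxin 2 (Apcs, Entrez 20219) was 2.16-fold higher at 249 ± 0.06 units in TC-1/IR and 115 ± 2.11 units in TC-1. Under the other treatments it lay between 165 and 177 units in TC-1/IR and between 86.5 and 116 units in TC-1, with no overlap of the lines. This was the strongest reading of the series, and any upper limit of the reading was not given in the sources used here. Complement factor D (Cfd), the protease that starts the alternative pathway and a product of fat cells, was 1.75-fold higher at 83.5 ± 2.87 units in TC-1/IR and 47.7 ± 0.56 units in TC-1. This protease also stood high in TC-1/IR after RT, at 74.8 units, against 24.6 with buffer and 26.3 with the combination, while the other TC-1 membranes read 29.3 to 35.8 units.

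Osteopontin (Spp1), a matrix glycoprotein of tumour cells and macrophages, read 174 ± 3.88 units in TC-1/IR and 124 ± 2.95 units in TC-1 and was higher only after centring. All 6 higher analytes had their highest value of the 8 membranes on TC-1/IR IL-7, by a margin within spot error for Serpin F1. Over all 111 analytes, 12 were highest there. The choice of the 6 as higher in the IL-7 pair favours such a value, so this count is no separate result. Plasma proteins made by liver did not move as 1 group. Of 9 measured, pentraxin 2 was higher and 4 were lower as deposited, whereas 2 were higher and 1 lower of 8 after centring and 1 of each of 7 after subtraction of the low-signal level. Fetuin A stood at 125 ± 9.15 units in TC-1/IR and 94.9 ± 0.68 units in TC-1, under 1.5-fold as deposited. The summed level of this list was 403 units in TC-1/IR and 266 units in TC-1. Over the other treatments the sum ran from 227 to 350 units in TC-1/IR and from 194 to 264 units in TC-1. The part of blood content in the rises of pentraxin 2, complement factor D, CD14 and myeloperoxidase was not tested.

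**Figure D3:**
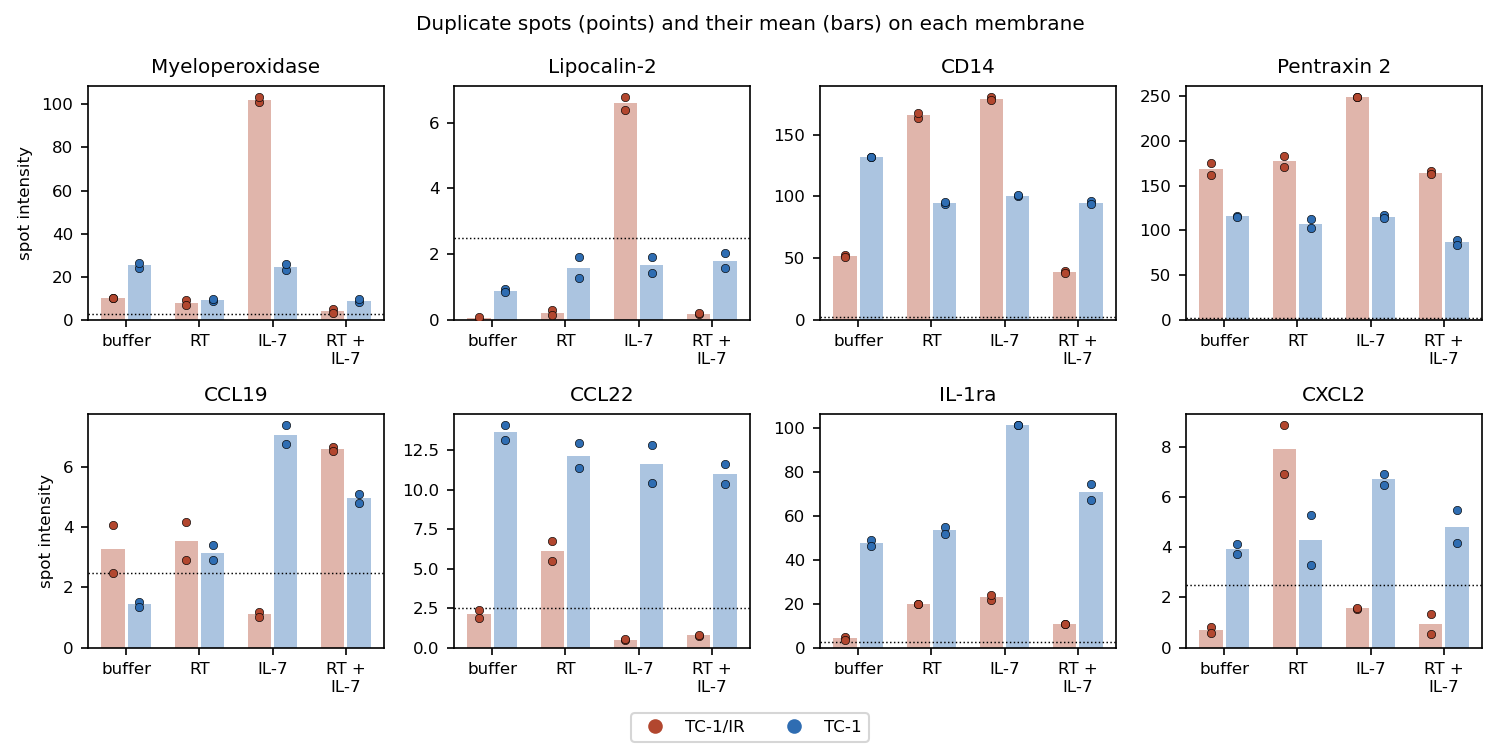
Spot intensity of 8 analytes on each membrane, with TC-1/IR in red left of TC-1 in blue for each treatment, duplicate spots as points, their mean as a bar and the floor of 2.49 dotted. Myeloperoxidase and lipocalin-2 are far above every other membrane on the IL-7 membrane of TC-1/IR, CCL19 is lowest there and highest on TC-1 IL-7, and CCL22 and IL-1ra are lower in TC-1/IR under every treatment.

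Several analytes belong to more than 1 list. The list of IL-1, TNF and IL-6 family members had 3 lower of 7 measured (IL-1β, IL-1ra and IL-11), or 2 of 7 after centring. IL-1α, IL-33, LIF and TNF-α were neither, between log2 -0.50 and -0.41. Antigen-presenting cell cytokines and receptors had 3 lower of 8 measured (CD40, IL-27 p28 and IL-28A/B), or 3 lower and 1 higher (IL-10) of 5 after centring. The entry named Flt-3, whose Entrez number belongs to the ligand Flt3l, was neither. Chemokines of CCR4, CCR3 and CCR6 had 3 lower of 4, or 2 of 4 after centring.

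Angiogenic and endothelial proteins had 5 lower of 8 measured as deposited, and 2 lower and 1 higher of 8 after centring. Epithelial stress and repair factors had 5 lower of 7 with lipocalin-2 higher, and 3 lower of 7 after centring. Platelet and coagulation proteins had 3 lower of 5 as deposited, but 0 lower and 1 higher of 5 after centring, and shed receptors and decoys 3 lower of 5 as deposited and 0 after centring. The median log2 ratio after centring was -0.18 for platelet and coagulation proteins and -0.27 for shed receptors and decoys. Neither was below the centred median of -0.30 over all 84 measured analytes. Matrix proteins and angiogenesis inhibitors had 1 higher (Serpin F1) and 3 lower of 7, or 2 and 2 of 6 after centring. IGF binding proteins had 2 lower of 5, or 1 of 4 after centring. Adipose products had 1 higher (complement factor D) and 3 lower of 6, or 1 and 1 of 5 after centring.

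Where the line difference after IL-7 departed from that under buffer, RT and the combination was then tested. For each analyte the log2 difference between the lines after IL-7 alone was compared in limma with the mean of the other 3 treatments, whose spread served as error. Those 3 differences share no membrane with the IL-7 pair, and 75 analytes entered, each exceeding the floor on 4 or more of 8 membranes. The spread includes any true effect of treatment on the line difference, and the IL-7 side of the test is 1 pair of membranes with no replicate.

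Limma called 1 of 75 analytes (1.33%), myeloperoxidase, and 5 had an unadjusted p under 0.05. The myeloperoxidase difference of TC-1/IR minus TC-1 was log2 2.05 after IL-7, against -1.31 with buffer, -0.19 after RT and -1.12 with both, a departure of 2.93 (SE 0.61, limma adjusted p = 0.0210). After centring the departure was 2.87 (limma adjusted p = 0.00103), with 1 standard error shared by all 72 analytes tested. It was not called with a floor of 0.5% or 2% (departures of 2.93 and 2.83, limma adjusted p = 0.159 and 0.239) or after subtraction of the low-signal level (2.95, limma adjusted p = 0.0565), so the size of the departure was nearly the same in these settings. Nor was it called without the buffer pair or without the combination pair (departures of 2.71 and 2.80, limma adjusted p = 0.450 and 0.386). Averaging the IL-7 and combination pairs against the other 2 gave a line by IL-7 difference of 1.22 (limma adjusted p = 0.918).

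CCL19 had the next smallest p, with a line difference of at most -1.51 after IL-7 against values of 0.39, 0.17 and 0.41 under buffer, RT and both. Its departure of -1.83 (SE 0.55) did not pass (limma adjusted p = 0.193). Angiopoietin-like 3, DPPIV and LIX followed, with departures of -1.54, -1.59 and -1.23 that did not pass (limma adjusted p from 0.473 to 0.640). DPPIV (CD26), a peptidase that trims chemokines, had 1.88 ± 1.07 units in TC-1/IR and 4.07 ± 0.30 units in TC-1 after IL-7. With buffer it had 6.54 and 1.29 units in TC-1/IR and TC-1, and after RT 6.23 and 2.15 units.

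Lipocalin-2 was above the floor on 1 of 8 membranes and did not enter the fit. CD14 departed by 1.44 (SE 0.77), short of a call (limma adjusted p = 0.640). The IL-7 reading departed by 0.61 and pentraxin 2 by 0.38, with limma adjusted p of 0.713 and 0.795.

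By the rule of size, TC-1/IR had 3 higher (4.17%) and 37 lower (51.4%) of 72 measured with buffer, 12 (13.3%) and 33 (36.7%) of 90 after RT, and 2 (2.56%) and 44 (56.4%) of 78 with the combination. In these, 15 of the 53 analytes lower after IL-7 were also lower under each of the other 3 treatments. They include IL-1ra, IL-11, CCL22, IL-4, IL-28A/B, IL-27 p28, endostatin and the IL-7 reading. A further 12 met the rule after IL-7 and in no other treatment as deposited, and 4 of the 12 were still lower after centring, namely CCL19, LIX, angiopoietin-like 3 and angiopoietin-2. These 12 were chosen on the same contrast that limma tests, so the fit is no separate check of them. Meeting the rule in 1 treatment does not show a difference between treatments, and limma called 0 of the 7 of these that it tested. IL-5, for example, had log2 -0.73 after IL-7 against -0.18 with buffer, -0.56 after RT and -0.54 with the combination. For all of these 12 but DPPIV, the IL-7 membrane of TC-1 held the highest value of the 8. Their choice as lower in the IL-7 pair alone favours such a value, so this count is no separate result. Of all 53, 33 were highest on TC-1 IL-7 and 20 were lowest on TC-1/IR IL-7. Over all 111 analytes, 52 were highest on TC-1 IL-7 and 33 were lowest on TC-1/IR IL-7. For 28 of the 53 the log2 ratio after IL-7 was lower than that under each other treatment. The choice of the 53 as lower after IL-7 favours this too. Its share over all measured analytes was not counted, so it is no separate result. Of the 6 higher analytes, 0 were called higher with buffer, 4 after RT and 1 with the combination, and myeloperoxidase and lipocalin-2 in none of these.

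**Figure D4:**
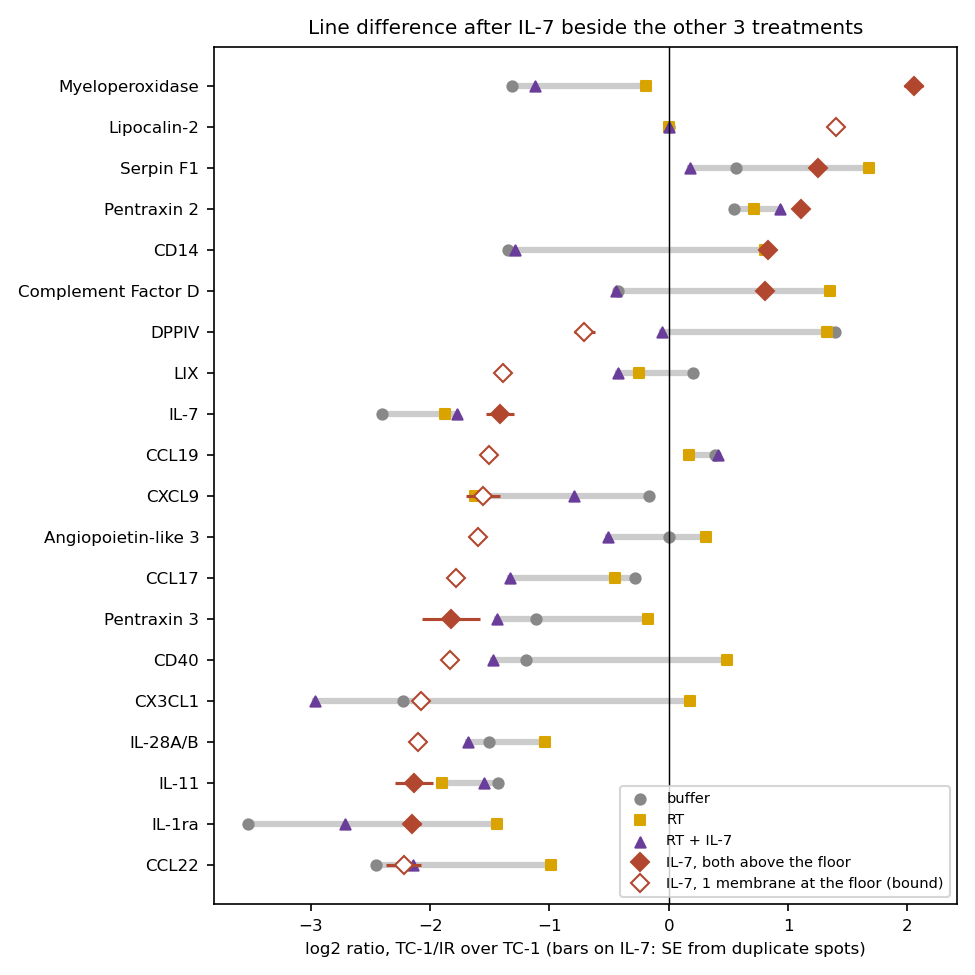
Log2 ratio of TC-1/IR over TC-1 after IL-7 (red diamonds with the SE from duplicate spots, open where 1 membrane was at the floor) beside the ratios with buffer, RT and RT with IL-7, joined by a grey bar, for the analytes with the largest differences, the smallest limma p and IL-7. Myeloperoxidase lies at 2.05, outside the range of -1.31 to -0.19 of the other treatments, and CCL19 at -1.51, outside 0.17 to 0.41. Bounds are marked for the IL-7 points and not for the other treatments.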

How the data were processed

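Tumour lysates were measured on a membrane antibody array for mouse cytokines with duplicate spots, per the labels' protocols. The authors deposited spot intensities on a linear scale, and the image software and background removal were not given in the sources used here. The series table and the membrane files held the same values, with 0 spots differing. Intensities were used as deposited, without reference-spot scaling. Symbols came from Entrez numbers, all 111 found in a RefSeq gene table (GRCm38.p6). No sequence is shown, since proteins were measured and no protein sequences were used here.

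Duplicate spots were averaged, means below the floor were set to it, and log2 ratios of TC-1/IR over TC-1 were taken. When centring, membranes were scaled first. Standard errors came from duplicate spots. The number of arrays limits the precision. The departure from the other treatments was fitted with limma 3.58.1 in R 4.3.3 with Benjamini-Hochberg adjustment, on 4 line differences with 2 residual degrees of freedom. The members, the 18 functional lists and the tests were chosen with earlier results of these data known.

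Named analytes were the 10 largest calls per direction, limma calls or the 5 smallest p, IL-7, and measured members of 6 immune lists. Others named within counts were chosen after their values were seen. Alternatives were 3 further scalings, other floors, a 2-fold threshold, single spots and, for limma, other filters, a trend, pairs left out and a factorial contrast. Subtraction of each membrane's low-signal offset was added after seeing the data.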

Additional observations from a re-analysis of the deposited data

Results flagged for a closer look

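Myeloperoxidase had a line difference after IL-7 that departed from the 3 other treatments in limma. By the rule of size TC-1/IR was higher than TC-1 after IL-7 and lower with buffer and with the combination. After RT it was neither, at log2 -0.19 with overlapping spots. The departure was log2 2.93 (SE 0.61), and the line difference was higher in the 1 pair given IL-7 alone than in each of the 3 others. Over 11 alternatives the departure ran from 1.22 to 3.27 and the limma adjusted p from 3.6e-06 to 0.918, with a call in 4 of 11. The lowest of these p-values came without the RT pair, where 1 standard error was shared by all 75 analytes. The departure rests on 1 pair of membranes with no replicate.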

How the results depend on the processing

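No paired analysis was possible because replicate numbers only name the lone membrane of each group, so no replicate block could be fitted. The limma fit instead used the difference between lines within each treatment. As deposited, 6 analytes were higher and 53 lower. The higher count was 12 after centring on 28 analytes, 16 after centring on the analytes above the floor on both IL-7 membranes, 13 with a floor per membrane and 12 after offset subtraction. The lower count was 31, 26, 53 and 34 under the same 4 settings, 21 with a floor of 2% and 32 at 2-fold. Lists with more lower than higher calls numbered 17 of 18 as deposited, 9 after the centring on both IL-7 membranes and 11 with the 2% floor. No called named analyte turned its direction in the 10 alternatives, and 13 of 30 kept the call in all 10. Where TC-1/IR lay below the floor, a ratio could shrink to 0 but hardly pass it. CCL6, G-CSF, DPPIV and IL-5 reached 0, so for such analytes the lack of a turn says little. Limma calls numbered 1, against 0 with floors of 0.5% or 2%, after offset subtraction or for the factorial contrast, 4 without the filter and 5 with a trend. Without 1 of the other pairs they ranged from 0 to 4. Some calls without the filter rest on values at the floor, which have no spread. The cause of these changes was not tested, apart from the fewer analytes above a higher floor. Analytes near the floor of 2.49 have bounds only, and duplicate spots do not measure variation between tumours.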
